A study of Mus musculus with 12 samples.

Results

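The heavy chain variable (V) segments expressed in the libraries were described as a repertoire, each segment as its share of all V segment counts in a library. Members were all genes whose symbol is Ighv followed by a digit and whose counts summed to at least 10 over the 12 libraries. There were 109 of them, of 185 Ighv genes listed and 46603 genes in all. By the GENCODE vM21 annotation of GRCm38, 98 are V genes and 11 V pseudogenes. Just inside the threshold were Ighv1-14, Ighv6-4 and Ighv8-10, with 10, 11 and 13 counts, and just outside were Ighv5-1 and Ighv8-7 with 9 each. Of the 76 Ighv genes left out, 59 are pseudogenes, and 39 had 0 counts in every library.

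RNA was sequenced from blood, drawn at the submandibular vein, and from the tip of the spleen of 8 month old C57/Bl6 mice. WT mice were compared with KO mice, which lack nuclear myosin 1 (NM1), a nuclear form of the motor protein encoded by Myo1c. Each tissue and genotype had 3 libraries, named here by tissue, genotype and the number in the label. The labels do not say whether each library came from a separate mouse, so p-values measure the spread between libraries, which may be technical. The comparison addresses the study's stated subject, the immune response without NM1.

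A heavy chain gene is built in each developing B cell by joining 1 V segment to a D and a J segment, so the V segment that a B cell transcribes marks the cell and its daughters. Naive B cells of a spleen together use many segments, each at a low share. Plasma cells, which secrete antibody, hold far more immunoglobulin RNA per cell than naive B cells, and in bulk RNA a segment's share counts transcripts, not cells. More cells using a segment and more RNA in each such cell cannot be told apart in these data.

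The members lie on the minus strand of chromosome 12, from 113578504 to 116000461 (GRCm38). The segments with the highest shares in single libraries are shown because the repertoires differed most in them. Each run is the last 294 bases of the V exon as annotated in GENCODE vM21, read 5′ to 3′ on the minus strand, and ends where the V segment is joined to D. Ighv1-26 (chr12:114788372-114788665) is all in lower case. Capitals in Ighv1-82 (chr12:115952538-115952831) and Ighv1-78 (chr12:115868773-115869066) mark bases that differ from Ighv1-26, in Ighv9-3 (chr12:114140692-114140985) those that differ from its nearest relative Ighv9-2, and in Ighv14-2 (chr12:113994469-113994762) those that differ from Ighv14-1.
Ighv1-26: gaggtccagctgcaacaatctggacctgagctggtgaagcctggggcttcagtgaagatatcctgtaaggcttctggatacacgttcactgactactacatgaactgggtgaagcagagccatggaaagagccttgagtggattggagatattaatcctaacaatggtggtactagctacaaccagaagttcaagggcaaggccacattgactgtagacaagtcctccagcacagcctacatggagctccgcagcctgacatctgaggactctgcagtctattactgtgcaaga
Ighv1-82: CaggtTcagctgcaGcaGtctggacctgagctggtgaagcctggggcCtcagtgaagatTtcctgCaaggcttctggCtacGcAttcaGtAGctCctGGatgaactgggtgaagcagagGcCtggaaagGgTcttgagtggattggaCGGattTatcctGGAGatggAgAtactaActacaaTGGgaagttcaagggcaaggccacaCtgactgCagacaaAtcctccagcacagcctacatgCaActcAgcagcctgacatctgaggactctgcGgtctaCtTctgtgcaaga
Ighv1-78: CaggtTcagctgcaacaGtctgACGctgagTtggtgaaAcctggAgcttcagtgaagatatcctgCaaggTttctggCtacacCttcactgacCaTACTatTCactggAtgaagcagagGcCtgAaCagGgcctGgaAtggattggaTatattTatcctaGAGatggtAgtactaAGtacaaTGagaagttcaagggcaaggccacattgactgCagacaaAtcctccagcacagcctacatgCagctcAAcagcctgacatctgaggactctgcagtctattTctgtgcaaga
Ighv9-3: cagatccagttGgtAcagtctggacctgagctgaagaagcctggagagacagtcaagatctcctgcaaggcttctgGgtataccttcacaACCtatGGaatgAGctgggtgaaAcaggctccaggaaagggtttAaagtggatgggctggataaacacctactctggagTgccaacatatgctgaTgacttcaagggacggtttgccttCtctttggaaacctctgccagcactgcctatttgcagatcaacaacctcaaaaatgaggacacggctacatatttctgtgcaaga
Ighv14-2: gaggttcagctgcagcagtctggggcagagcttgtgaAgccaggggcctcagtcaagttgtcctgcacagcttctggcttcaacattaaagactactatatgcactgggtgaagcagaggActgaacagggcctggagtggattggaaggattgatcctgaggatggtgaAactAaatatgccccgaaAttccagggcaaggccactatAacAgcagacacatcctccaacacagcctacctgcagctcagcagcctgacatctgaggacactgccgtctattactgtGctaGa
Ighv1-82 and Ighv1-78 differ from Ighv1-26 at 43 and 44 of the 294 bases, although all 3 belong to family 1. Ighv9-3 differs from Ighv9-2 at 15 bases and Ighv14-2 from Ighv14-1 at 9. Among all members, 46 had only 75-base words found in no other annotated Ighv transcript, and the median identity to the nearest segment was 94.7%.

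The libraries fell into 2 kinds that cut across the labels. The globin genes of red cells made up 48.9% to 56.1% of counts in 6 globin-rich libraries (blood WT 01, KO 02 and KO 03; spleen WT 02, WT 04 and KO 03) and 0.846% to 5.90% in the other 6, called globin-poor. Vcam1, a marker of the red pulp macrophages of the spleen, stood at 188 to 405 CPM (counts scaled to an equal total per library) in all globin-poor libraries, those labelled blood included, and at 0 to 0.877 CPM in all globin-rich ones, those labelled spleen included. Genotype and tissue label were therefore also compared within each kind. They are unbalanced there: by label, globin-poor KO libraries are mostly spleen and WT mostly blood, and globin-rich ones the reverse. Contrasts of shares or effective numbers between genotypes within a kind hold no label term, so they do not separate genotype from label. Myo1c was counted at 26.0 to 208 CPM, and a count per gene does not separate the NM1 form, so it checks no genotype label. Ighv genes held 262 to 1244 counts in globin-rich and 4569 to 46697 in globin-poor libraries, so shares in the former are much less precise. A segment with 0 counts may hold up to 3 counts, or 1.15% of the Ighv counts in spleen WT 02 and 0.00642% in spleen KO 04.

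The repertoire was broad in every library and shared a leading segment. Ighv1-26 had the highest mean share, 6.73% of Ighv counts, and ranked first in 8 of the 12 libraries. Of the 109 segments, 49 had counts in all 12 libraries, 15 had counts in at most 6, and 37 had a mean share of at least 1%. Those 37 held 77.2% of the counts on average. After Ighv1-26 the highest mean shares were those of Ighv9-3 (5.71%), Ighv1-82 (4.16%), Ighv3-6 (3.78%), Ighv8-8 (2.68%), Ighv1-53 (2.62%), Ighv1-18 (2.48%), Ighv1-9 (2.41%), Ighv14-2 (2.31%) and Ighv6-3 (2.25%). The first 10 held 35.1% together, and 5 of them are family 1 segments.

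The share of Ighv1-26 was 6.83%, 8.30% and 12.8% in blood WT 01, 03 and 04 and 6.03%, 7.80% and 5.53% in blood KO 02, 03 and 04. In spleen it was 7.88%, 4.20% and 8.57% in WT 01, 02 and 04 and 2.02%, 5.93% and 4.89% in KO 01, 03 and 04. It was highest in blood WT 04 (95% Wilson interval 12.1% to 13.5%) and lowest in spleen KO 01. Within the globin-poor libraries the KO shares all lay below the WT shares, while in the globin-rich libraries the genotypes overlapped. As CPM, however, Ighv1-26 was highest of any library in spleen KO 04, at 90.6.

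**Figure D1:**
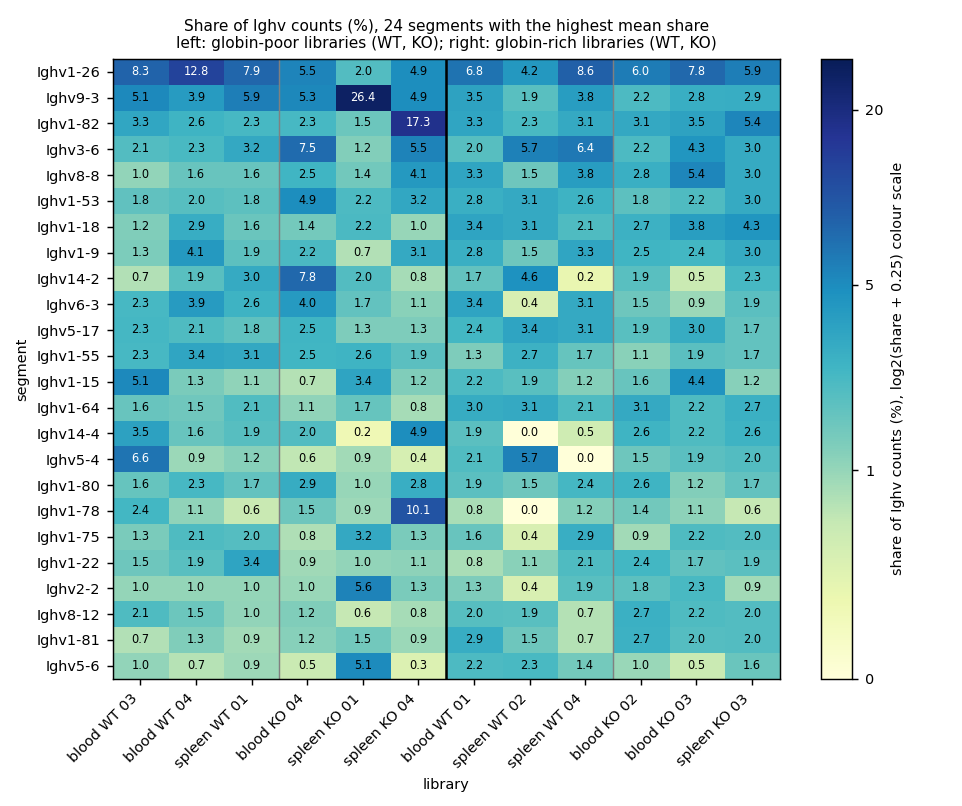
Heat map of the share of Ighv counts (%, number in each cell; colour on a log2 scale of share + 0.25) for the 24 segments with the highest mean share (rows) in the 12 libraries (columns, globin-poor left of the black line). Ighv1-26 is high in most columns, Ighv9-3 reaches 26.4% in spleen KO 01, and Ighv1-82 and Ighv1-78 reach 17.3% and 10.1% in spleen KO 04.

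In spleen KO 01, Ighv9-3 took 26.4% of the Ighv counts (9611 of 36441 counts, Wilson interval 25.9% to 26.8%). In the other 11 libraries its share lay between 1.91% in spleen WT 02 and 5.89% in spleen WT 01. Ighv2-2 (5.63%) and Ighv5-6 (5.10%) came next in spleen KO 01, against at most 2.28% and 2.29% in any other library, and Ighv1-26 stood at 2.02% there. Ighv7-4, with 547 counts and a share of 1.50% in spleen KO 01, had at most 17 counts in any other library. Family 9, whose other members are few and low, held 27.2% of the repertoire in spleen KO 01 and 3.91% to 6.65% elsewhere.

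In spleen KO 04 a different pair led. Ighv1-82 took 17.3% (8073 of 46697 counts, interval 16.9% to 17.6%) and Ighv1-78 took 10.1% (4737 counts, interval 9.87% to 10.4%). Elsewhere Ighv1-82 ranged from 1.54% in spleen KO 01 to 5.35% in spleen KO 03. Ighv1-78 ranged from 0 counts in spleen WT 02 to 2.41% in blood WT 03. Ighv14-4 also had its highest share, 4.90%, in spleen KO 04 and stood at 0.178% in spleen KO 01. The segments that led in one of these KO spleen libraries therefore did not lead in the other. Ighv9-3 held 4.86% in spleen KO 04, and Ighv1-82 held 1.54% in spleen KO 01.

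The third KO spleen library, spleen KO 03, is globin-rich and showed neither pattern. Its first segments were Ighv1-26 (5.93%), Ighv1-82 (5.35%) and Ighv1-18 (4.34%), and Ighv9-3 stood at 2.89%. With 37 Ighv1-82 counts, the interval for that share ran from 3.91% to 7.29%.

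**Figure D2:**
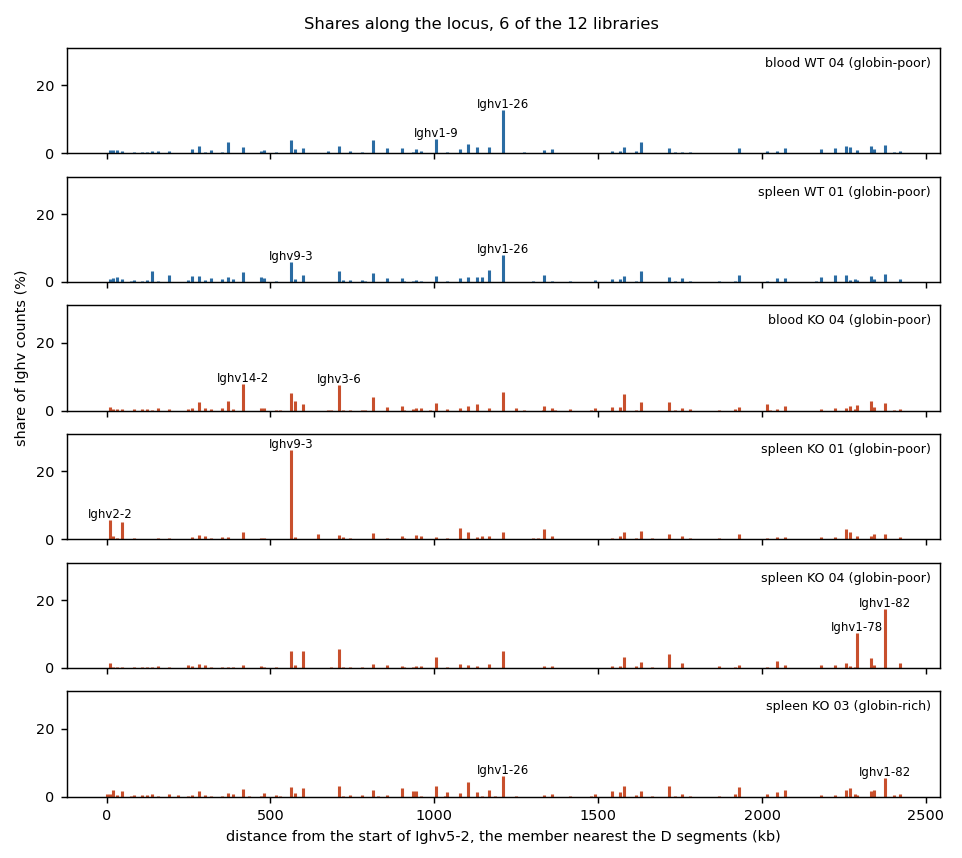
Share of Ighv counts (%, vertical lines, 1 per segment) against distance from the start of Ighv5-2 (kb) in 6 of the 12 libraries, WT in blue and KO in orange, with the 2 highest segments of each library named. Ighv1-26 leads in blood WT 04 and spleen WT 01, Ighv14-2 in blood KO 04, Ighv9-3 in spleen KO 01 and Ighv1-82 in spleen KO 04.

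Ighv1-26 was also not first in 2 further libraries. In blood KO 04, Ighv14-2 held 7.84% (interval 7.11% to 8.64%) and Ighv3-6 held 7.55% (6.83% to 8.34%), ahead of Ighv1-26 at 5.53%. Elsewhere Ighv14-2 ranged from 0.238% in spleen WT 04 to 4.58% in spleen WT 02. In spleen WT 02, with the fewest Ighv counts, Ighv3-6 and Ighv5-4 tied at 15 counts (5.73%, interval 3.50% to 9.23%), an interval that contains the 4.20% of Ighv1-26. Ighv5-4 was also second in blood WT 03, at 6.61% (5.93% to 7.37%), where Ighv1-15 held 5.14%.

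Evenness was summarised by the effective number of segments, the count of equally used segments that would give the same Shannon entropy. It was 53.1, 49.9 and 51.4 in blood WT 01, 03 and 04 and 62.2, 51.6 and 48.2 in blood KO 02, 03 and 04. In spleen it was 57.7, 49.6 and 46.7 in WT 01, 02 and 04 and 32.3, 56.1 and 34.0 in KO 01, 03 and 04. Spleen KO 01 and KO 04 were thus the least even, and the other 10 libraries lay between 46.7 and 62.2. With each library thinned to 262 Ighv counts, spleen KO 01 and KO 04 still had the fewest, 27.6 and 28.7 effective segments, and the others had 40.9 to 53.7. Without the first-ranked segment of each library, spleen KO 01 rose to 51.2 and spleen KO 04 to 40.7, beside 48.6 to 63.6 in the others. These are descriptions of a score over the members, with no test.

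In spleen KO 01 and KO 04, 8 and 7 segments made up 50% of the Ighv counts, against 12 to 19 segments in the other libraries. Their first 10 segments held 55.7% and 60.9%, against 31.2% to 46.2%. Among the globin-poor libraries the effective number of the KO (32.3, 34.0 and 48.2) lay below that of the WT (49.9, 51.4 and 57.7), a difference of medians of -17.45. The 32.3 and 34.0 are of spleen libraries and the 49.9 and 51.4 of blood libraries, so genotype is not separated from label here. By the inverse Simpson index, which weights common segments more, the same KO and WT libraries overlapped (11.8, 17.1 and 31.9 against 30.4, 34.6 and 41.0). Among the globin-rich libraries the KO were not lower (51.6, 56.1 and 62.2 against 46.7, 49.6 and 53.1). Pielou evenness, the entropy over its maximum for the segments detected, was 0.745 to 0.873 in globin-poor and 0.890 to 0.922 in globin-rich libraries, and the latter detected 69 to 95 segments against 91 to 107.

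**Figure D3:**
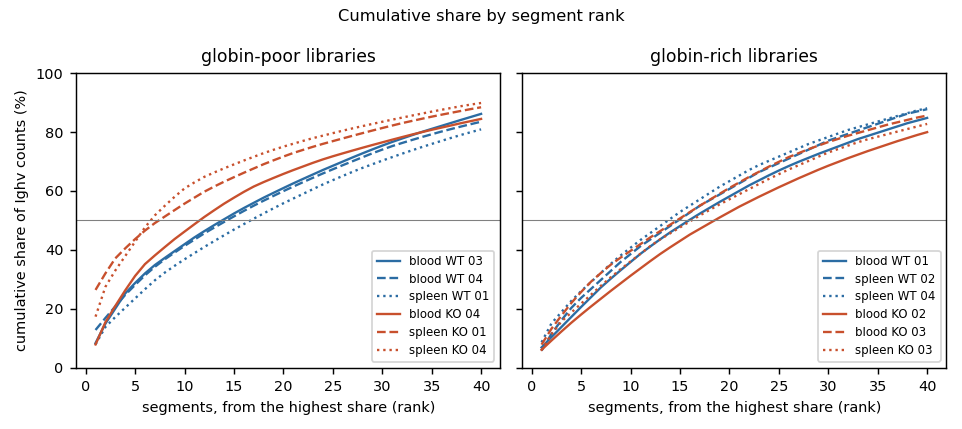
Cumulative share of Ighv counts (%) against segment rank, 1 line per library, WT in blue and KO in orange, globin-poor libraries on the left and globin-rich on the right, with a grey line at 50%. Spleen KO 01 and KO 04 cross 50% at 8 and 7 segments, ahead of the other lines.

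By family, family 1, the largest with 58 members, held 52.6% of Ighv counts on average, from 40.6% in spleen KO 01 to 64.2% in spleen KO 04. Family 5 averaged 8.77%, from 4.25% in spleen KO 04 to 17.6% in spleen WT 02, and family 9 averaged 7.04%. Families 14, 3, 8 and 2 averaged 5.97%, 5.13%, 5.00% and 4.74%. Pseudogene segments held at most 2.67% of the Ighv counts, in spleen WT 02.

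D segments lie next to Ighv5-2, the member at the low-coordinate end. Segments in the D-proximal part of the locus, with starts up to its midpoint and 63 members, held 56.8% to 70.1% of Ighv counts in 11 libraries. In spleen KO 04 they held 44.2%. Ighv1-82 and Ighv1-78 lie in the distal part, 46 members in all, and Ighv9-3 in the proximal part. Ighv1-26 starts closest to the midpoint of all proximal members. Ighv5-2 itself, known for frequent rearrangement in early B cells, was rare: its share was 0 in blood WT 01 and spleen WT 04 and at most 0.868%, in spleen KO 03 with 6 counts.

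Segments known from particular B cells differed in their level. Ighv11-2 and Ighv12-3 are used by B-1 cells, an innate-like lineage, that bind phosphatidylcholine. Ighv11-2 averaged 0.512% and was highest in spleen WT 01 (1.46%), and Ighv12-3 averaged 0.228% and reached 0.714% in spleen WT 04 with 3 counts. Ighv1-72, known from responses to the hapten NP in C57/Bl6 mice, averaged 1.10% (0.434% to 1.91%), but only 15.2% of its 75-base words are unique, with 99.0% identity to Ighv1-62-3. Ighv1-62-2 and Ighv1-71 have identical V exons and cannot be told apart by sequence. Ighv6-3, among the 10 highest by mean share, ranged from 0.382% to 4.04%.

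A few rare segments were prominent in 1 or 2 libraries. Ighv1-20 had 240 counts (1.41%) in spleen WT 01 and 312 (0.856%) in spleen KO 01, against at most 19 counts elsewhere. Ighv3-4 had 53 and 52 counts in blood WT 03 and WT 04 (1.16% and 0.553%) and at most 31 elsewhere. Ighv8-6 and the pseudogene Ighv8-10 peaked in spleen WT 02, with 1.53% and 1.91%, but on 4 and 5 counts.

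Constant regions of the heavy chain show which antibody class the B-lineage cells transcribe, and IgG was highest where the repertoire was least even. IgG genes held 35.0% and 41.8% of heavy chain constant counts in spleen KO 01 and KO 04, against 5.26% to 11.9% in the other globin-poor libraries. In globin-rich libraries they held 0.161% to 0.368%, and Ighm with Ighd, the classes of naive B cells, held 97.5% to 99.4%. Ighm with Ighd held 55.6% and 45.8% in spleen KO 01 and KO 04, and 59.4% to 71.4% in the other globin-poor libraries. Igha, the gene of a further class, went the other way from IgG, with 9.47% and 12.4% against 17.2% to 33.6%. The leading IgG class differed between the KO spleen libraries. Ighg2b held 21.3% in spleen KO 01 and 9.52% in spleen KO 04, and Ighg3 held 1.89% and 19.4%. In the other 10 libraries Ighg2b was at most 5.18% and Ighg3 at most 2.30%.

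The amount of Ighv RNA also stood apart in spleen KO 01 and KO 04, at 1290 and 1853 CPM. The other globin-poor libraries had 197 CPM (blood WT 03), 381 (blood WT 04), 199 (blood KO 04) and 677 (spleen WT 01), and the globin-rich ones 25.3 to 113 CPM. The 13 plasma cell markers, among them Jchain, which joins antibody multimers, and the secretory regulator Xbp1, summed to 2662 and 3745 CPM there, 1256 to 2529 CPM in the other globin-poor libraries and 91.6 to 191 CPM in the globin-rich ones. Germinal centre markers summed to 774 and 498 CPM in spleen KO 01 and KO 04, between the 241 CPM of spleen WT 01 and the 1145 to 1418 CPM of the globin-poor blood libraries. The part of these cells in the segment shares was not tested. Rag1 and Rag2, which cut the locus for joining, were at most 0.989 and 0.363 CPM in any library.

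**Figure D4:**
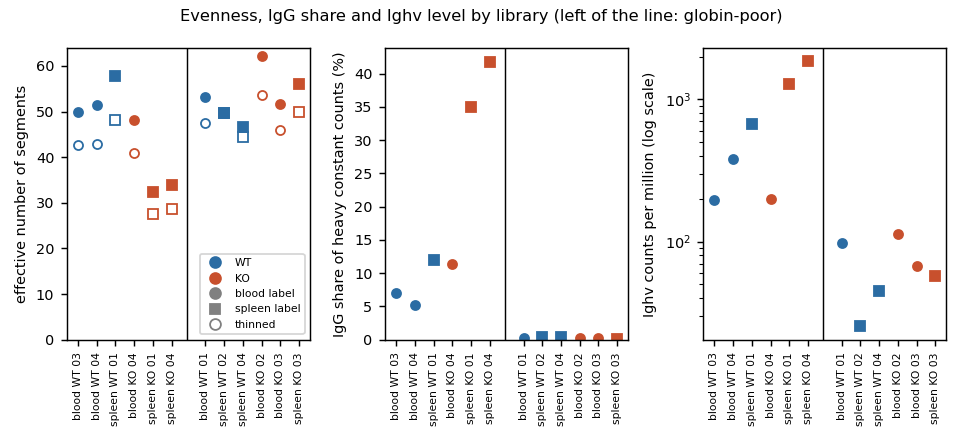
Effective number of segments (left; open symbols thinned to 262 Ighv counts), IgG share of heavy chain constant counts (%, middle) and Ighv CPM (right, log axis) in each library, WT in blue and KO in orange, circles for blood labels and squares for spleen labels. Spleen KO 01 and KO 04 have the lowest effective numbers and the highest IgG shares and Ighv CPM.

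No segment was called for genotype by edgeR's quasi-likelihood test (adjusted p under 0.05 over all genes tested, Benjamini-Hochberg). In spleen, 0 of 81 tested segments were called, as were 0% of 15362 genes. At an unadjusted p under 0.05 there were 9 segments, beside 370 of 15362 genes, and DESeq2 also called 0 segments. The log2 fold change of KO over WT was above 0 for 69 of the 81, with a median of 0.89 against 0.02 over all genes. That median was 1.94 without spleen WT 01, 0.59 without spleen KO 01 and 0.53 without spleen KO 04. The 9 segments became 0 without spleen WT 02 or WT 04, 2 without spleen KO 01 or KO 04, and 24 without spleen KO 03. Of all genes, 90 of 16754, 206 of 16819, 135 of 15202, 174 of 14937 and 1802 of 17358 then had such a p, in that order. Ighv1-82 differed by 3.51 ± 1.31 (SE), Ighv1-78 by 4.60 ± 1.76 and Ighv9-3 by 3.00 ± 1.37 on the log2 scale, each with an edgeR adjusted p of 0.989. Without spleen KO 04, 50 of 72 tested segments lay above 0, and without spleen KO 01, 59 of 76. KO spleen holds 2 globin-poor libraries and WT spleen 1, so kind and genotype are unbalanced here.

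In blood, 0 of 61 segments and 0% of 14939 genes were called, and DESeq2 called 0. At an unadjusted p under 0.05 in edgeR there were 0 segments, beside 24 of 14939 genes. The median log2 fold change of the segments was 0.06, and its sign was not stable: it was -0.26 without blood KO 02, -0.16 without blood WT 03, -0.01 without blood WT 01, -0.29 with the replicate block and -0.83 with library size only. Ighv1-26 stood at -0.58 ± 0.50 and Ighv3-6 at 0.99 ± 0.47. KO blood holds 2 globin-rich libraries and WT blood 1, so kind and genotype are unbalanced here too. Within the globin-poor blood libraries, Ighv3-6 measured 4.06 (WT 03), 8.58 (WT 04) and 15.0 (KO 04) CPM, and within the globin-rich ones 1.93 (WT 01), 2.45 (KO 02) and 2.88 (KO 03) CPM, with the KO values above WT in each kind but the test not passed. The CPM of Ighv1-26 was lowest in KO 04 among the globin-poor blood libraries and overlapped between genotypes among the globin-rich ones. The KO effect in spleen minus that in blood was called for 0 of 83 segments and 0% of 16858 genes. At an unadjusted p under 0.05 there were 6 segments, beside 171 of 16858 genes, and DESeq2 called 0 segments. Ighv1-82 came to 3.64 ± 1.44 in that difference, with an edgeR adjusted p of 0.931. In the same difference the median of the segments was 1.15, against 0.15 over all genes. Medians of other lists were -2.93 for globin, -2.47 for platelet, 1.99 for red pulp macrophage, 2.86 for neutrophil and 1.71 for stromal genes. Among B-lineage lists they were 2.81 for heavy chain constant, 1.53 for plasma cell and -0.37 for B cell genes. The part of these lists in the segment values was not tested.

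With library kind and tissue label as terms over all 12 libraries, edgeR called 0 of 83 segments for KO against WT. Of 16858 genes, 0% were called. At an unadjusted p under 0.05 there were 8 segments, beside 753 of 16858 genes, and DESeq2 called 0 segments. The median was 0.61, against 0.03 over all genes, and 70 segments lay above 0. With 1 library left out that median was 0.40 to 0.92, and 2 to 20 segments had an unadjusted p under 0.05. The fewest were without blood WT 03, spleen WT 01 or spleen KO 04 and the most without blood KO 04. Of all genes, 752 of 16553, 994 of 15408, 881 of 16414 and 881 of 15546 then had such a p, in that order. Ighv1-78 differed by 2.46 ± 1.09, Ighv1-82 by 1.82 ± 0.86, Ighv9-3 by 1.36 ± 0.71, Ighv3-6 by 1.11 ± 0.48 and Ighv1-26 by 0.13 ± 0.46 (edgeR adjusted p 0.844 or above). The sign for Ighv1-26 turned without spleen KO 04 (-0.38), spleen WT 02 (-0.10) or blood WT 03 (-0.03).

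Within the globin-poor libraries, 0 of 93 segments and 0% of 17098 genes were called, and 0 segments by DESeq2. At an unadjusted p under 0.05 in edgeR there were 5 segments, beside 775 of 17098 genes. The CPM of Ighv9-3 was 10.2, 14.9 and 39.9 in blood WT 03, blood WT 04 and spleen WT 01 and 10.5, 340.3 and 90.0 in blood KO 04, spleen KO 01 and spleen KO 04. The genotypes overlap, and edgeR gave 1.24 ± 0.90 (adjusted p 0.758). By share, the KO and WT libraries did not overlap for 17 of the 109 segments, or 15.6% (2 higher and 15 lower in KO). Within the globin-rich libraries they did not overlap for 12, or 11% (10 higher and 2 lower). With 3 libraries against 3, some segments come apart without any genotype difference, and label is unbalanced, so these counts show none. Shares also sum to a fixed total, so the high shares in spleen KO 01 and KO 04 lower the others there. Of the 18 segments whose shares were looked at singly, 4 were apart in the globin-poor libraries, and these are named after their values were seen. The shares of Ighv1-53 were 1.77%, 1.96% and 1.85% in the WT libraries and 4.90%, 2.19% and 3.23% in the KO libraries, in the same order. The KO shares of Ighv1-53 lay above the WT shares, and those of Ighv1-26, Ighv1-22 and Ighv5-4 lay below. By CPM the genotypes overlapped for Ighv1-26, which was highest in spleen KO 04 (90.6). None of the 4 was called by CPM: edgeR gave Ighv1-53 a difference of 1.41 ± 0.41 (adjusted p 0.747). Within the globin-rich libraries, 0 of 40 segments and 0% of 12962 genes were called, and 0 segments by DESeq2. At an unadjusted p under 0.05 in edgeR there were 0 segments, beside 923 of 12962 genes. The median there was -0.01, and Ighv9-3 differed by -0.28 ± 0.58.

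Scaled so that the Ighv total is equal in every library, which tests the share and not the level, edgeR with kind and label terms called 0 of 83 segments for genotype, beside 0.0237% of all genes. There was 1 segment at an unadjusted p under 0.05, Ighv1-4 (-1.83 ± 0.83), beside 1749 of 16858 genes. DESeq2 called 0 segments. The median difference of the segments was -0.10 and that of all genes -0.56. Ighv1-78 came to 1.15 ± 0.72 and Ighv1-82 to 0.79 ± 0.62, while Ighv9-3 came to 0.46 ± 0.61 and turned to -0.11 without spleen KO 01.

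Library kind, with genotype and label in the model, was the only comparison with called segments on the TMM scale. Of 83 tested segments, edgeR called 18 for globin-poor against globin-rich, all higher in globin-poor, where 29.9% of all 16858 genes were called higher and 24.1% lower. In either direction 54.0% of genes were called. The median was 0.95 over the segments and 0.12 over all genes, and 73 of 83 lay above 0. The count was 9 without spleen WT 01, 10 without spleen KO 04 and 11 without spleen KO 03. Of all genes, 8258 of 15408, 8680 of 16414 and 9827 of 17930 were then called, in that order. With spleen KO 01 and KO 04 both left out, 6 of 70 tested segments were called, beside 7518 of 16180 genes. These were Ighv9-3, Ighv1-55, Ighv4-1, Ighv1-74 and Ighv8-5 higher and Ighv9-1 lower. Ighv8-5 stood at 0 to 0.413 CPM in globin-rich libraries, under the about 0.568 CPM that the filter on low counts asks for with all libraries. It passed through the globin-poor libraries alone, so its call supports no direction.

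The called segments with the smallest p were Ighv1-74 (2.05 ± 0.41), Ighv1-55 (1.80 ± 0.39), Ighv4-1 (2.24 ± 0.56), Ighv5-16 (1.60 ± 0.50) and Ighv5-15 (3.19 ± 1.01). Ighv1-74, with an edgeR adjusted p of 0.00079, stood at 1.51 to 14.2 CPM in globin-poor and 0.270 to 0.526 CPM in globin-rich libraries. Ighv1-55 stood at 4.58 to 34.9 CPM against 0.675 to 1.27 CPM. Neither pair of ranges overlaps, but the CPM ranges of Ighv1-26, Ighv3-6 and Ighv1-82, which were not called, do not overlap either. Ighv1-82, for example, stood at 4.57 to 320 CPM in globin-poor and 0.579 to 3.54 CPM in globin-rich libraries. These CPM include globin in the total. The share of all segments that come apart in this way is not given, so the non-overlap adds no support to the calls. The filter on low counts asks for about 0.568 CPM, and 8 of the 18 called segments reached that in no globin-rich library, Ighv1-74, Ighv11-2 and Ighv5-15 among them. Those 8 passed the filter through the globin-poor libraries alone, so the count of 18 and the median over tested segments support no direction. Ighv4-1, Ighv5-16 and Ighv1-59 reached that level in 2 globin-rich libraries and in all 6 globin-poor ones. Their place among the tested segments also leans on the globin-poor libraries, so their calls support no direction either. Ighv9-3, 2.34 ± 0.72 (edgeR adjusted p 0.0171), stood at 10.2 to 340.3 CPM against 0.482 to 3.42 CPM, and was still called without spleen KO 01 and KO 04 (1.17). Ighv14-2 (1.45 ± 0.53), Ighv6-3 (1.35 ± 0.47), Ighv11-2 (2.01 ± 0.69) and Ighv1-53 (1.03 ± 0.41) were also called, Ighv1-53 in 6 of 19 alternative settings, whereas Ighv1-26 (1.08 ± 0.47, adjusted p 0.0726) was not. Ighv9-3 also had non-overlapping shares, 3.91% to 26.4% in globin-poor and 1.91% to 3.81% in globin-rich libraries. The ranges nearly touch, and the 3.81%, in spleen WT 04, rests on 16 counts. At equal Ighv total Ighv9-3 was not called (1.35 ± 0.61, edgeR adjusted p 0.0756). With globin taken out of the total, the Ighv CPM of the kinds overlapped, at 209 to 1884 and 57.0 to 222.

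At equal Ighv total, 3 of 83 segments were called by kind, all lower in globin-poor libraries, where 32.2% of all genes were called, 26.5% lower and 5.64% higher. That scaling moves the median of all genes to -0.90, and the median of the segments was -0.09. Ighv9-1 fell by 2.26 (SE 0.85), Ighv1-5 by 2.14 (SE 0.85) and Ighv5-2 by 2.66 (SE 1.08) on the log2 scale. The share of Ighv9-1 was 0.113% to 0.308% in globin-poor and 0.434% to 2.29% in globin-rich libraries, and that of Ighv1-5 was 0.175% to 0.526% and 0.629% to 3.05%. Both pairs of ranges are apart, but the globin-rich values rest on 2 to 15 counts a library. The shares of Ighv5-2 overlapped, at 0.0210% to 0.159% in globin-poor and 0% to 0.868% in globin-rich libraries, the latter on 0 to 10 counts. Ighv9-1 and Ighv1-5 were each still called in 8 of 16 alternative settings, and Ighv5-2 in 3 of 9. Without blood WT 03, blood WT 04, spleen WT 01 or spleen KO 01, 0 segments were called by edgeR. Of all genes, 4742 of 16553, 4268 of 16545, 3244 of 15408 and 3631 of 16533 were then called, in that order. With spleen KO 01 and KO 04 both left out, 1 was called, Ighv8-5, and it was higher, beside 3116 of 16180 genes called. Because Ighv8-5 lay under the filter level in all globin-rich libraries, this call supports no direction.

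**Figure D5:**
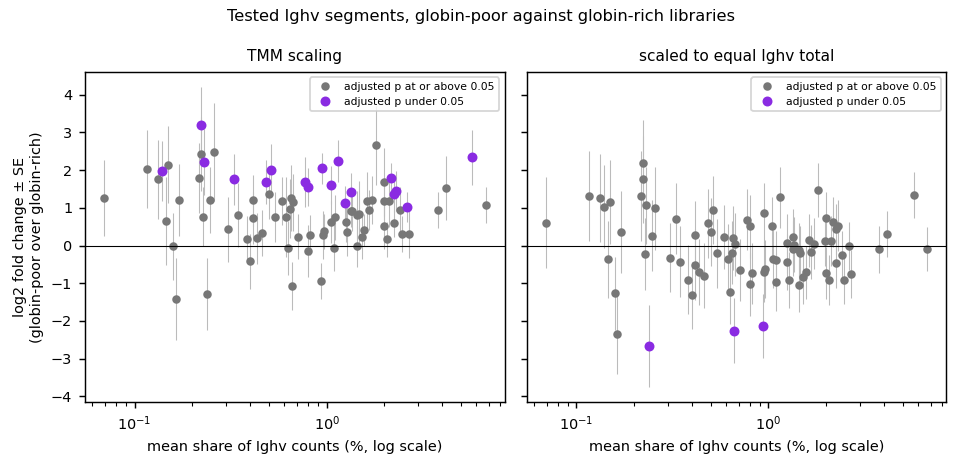
Log2 fold change ± SE of globin-poor over globin-rich libraries against mean share of Ighv counts (%, log axis) for the 83 tested segments, TMM scaled on the left and at equal Ighv total on the right, with called segments in purple. On the left 18 segments are called, all above 0, and on the right 3, all below 0.

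Other genes of the B lineage were read from the same kind comparison. Of the 8 heavy chain constant genes, 7 rose in globin-poor libraries and Ighd fell by 0.73 (SE 0.19). Plasma cell markers rose in 9 of 13, with none lower, and light chain constant genes in 3 of 4. B cell markers rose in 1 of 14, Cr2, and fell in 5. Marginal zone markers, for a splenic B cell type, rose in 4 of 5, B-1 markers in 1 of 6 with 1 lower, and germinal centre markers in 1 of 8 with 1 lower. Of the 6 recombination genes 1 was tested and not called. Markers of other cells moved with the kind too: red pulp macrophage genes rose in 5 of 5, stromal genes in 5 of 6 with 1 lower, neutrophil genes in 3 of 6 with 2 lower, T cell genes in 0 of 7 with 1 lower, while all 6 platelet genes and all 6 globin genes tested, of 8 listed, fell. In the genotype comparisons none of these genes was called.

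By tissue label, with kind and genotype in the model, edgeR called 0 of 83 segments, beside 0.0297% of all genes. At an unadjusted p under 0.05 there were 14 segments, beside 1742 of 16858 genes. DESeq2 called 1 segment, Ighv1-74, lower in blood, beside 405 of 16858 genes. The median of blood minus spleen was -0.71 against -0.01 over all genes, and 75 segments lay below 0. Without blood KO 04 the median was -0.34 and 49 of 75 tested segments lay below 0. With 1 library left out, 3 (without blood WT 03) to 23 (without spleen KO 03) segments had an unadjusted p under 0.05. Of all genes, 1339 of 16553 and 1966 of 17930 then had such a p, in that order. The kinds went opposite ways in total Ighv level. Among globin-poor libraries it was 197 to 381 CPM in blood and 677 to 1853 CPM in spleen, and among globin-rich ones 66.9 to 113 CPM in blood and 25.3 to 57.1 CPM in spleen. This difference between the kinds was not tested. Ighv1-74 came to -1.39 ± 0.41 (edgeR adjusted p 0.227) and Ighv3-6 to -1.25 ± 0.48. At equal Ighv total, 0 of 83 segments were called, beside 0.0475% of genes, and 0 segments by DESeq2. There were 2 segments at an unadjusted p under 0.05, beside 931 of 16858 genes. The median was 0.15, against 0.67 over all genes.

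Across segments, the profiles of library pairs were compared by the correlation of shares over the 109 members, as a description. Globin-rich pairs had Pearson r from 0.573 to 0.860 (median 0.763 over 15 pairs) and globin-poor pairs from 0.259 to 0.855 (median 0.486 over 15 pairs). By Spearman rho the order of the kinds was reversed, with medians of 0.681 for globin-rich and 0.812 for globin-poor pairs. Globin-poor pairs with spleen KO 01 or KO 04 had Pearson r from 0.259 to 0.529, and those without them from 0.545 to 0.855. The lowest globin-poor Pearson r was between spleen KO 01 and KO 04, which had 48.0% of their shares in common. By rank, the same pair had a Spearman rho of 0.803, so the ranks of the segments were more alike than their shares. Blood and spleen libraries of 1 genotype with the same number had r from 0.472 to 0.819. All these pairs share the same segments and annotation, and depth differs between the kinds.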

How the data were processed

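The authors deposited a table of raw, whole-number counts for each of the 12 libraries, with no normalization in the values. Per the submitters' processing notes, HTSeq, SAMtools 0.1.19, HISAT2 2.0.4, FastQC and Trimmomatic 0.36 were used with the build GRCm38. The strand setting, the annotation release and the handling of reads that match several segments are not given in the sources used here. Reads were aligned to germline segments, and loss of mutated reads was not tested. Libraries held 9317793 to 28243206 counts. Symbols came from GENCODE vM21 (46091 of 46603 identifiers matched).

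Shares are segment counts over summed counts of the 109 members. Intervals are 95% Wilson intervals and, like the limit of 3 counts for a 0, cover counting error only, since reads carry no molecular identifiers. Thinning used the mean of 100 draws. All genes passing filterByExpr were fitted with TMM scaling and edgeR 4.0.16 (robust quasi-likelihood F test, R 4.3.3), and adjusted p-values are over all genes tested. In other fits library sizes were set to the summed Ighv count. Fits were tested on simulated data. Alternatives were DESeq2 1.42.0, its size factors alone, plain library sizes, TMM computed after dropping globin and mitochondrial genes, a filter of just 1 count, a block for replicate number, and leave-one-out fits. The fits without spleen KO 01 and KO 04 together, and the scores without segments having under 50% unique words, were chosen after seeing the data. Sequences were compared without gaps from the 3′ end of the V exon.

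Named segments were the 10 with the highest mean share, those in the first 3 of a library, up to 5 called per direction with the smallest p, 5 set from background knowledge, and the 5 with the largest ratio of highest to median share among those reaching 1%. Others named (Ighv14-4, Ighv1-4, Ighv8-5, and the called segments beyond the first 5) were chosen after their values were seen. The members, marker lists and tests were chosen with earlier results of these data known. The ratio of Ighv counts to B cell marker counts is not reported here.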

Additional observations from a re-analysis of the deposited data

Results flagged for a closer look

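Among 6 libraries of a kind, a share was singled out when 1 library's gap to its nearest neighbour took more than 0.625 of the range (Dixon's 95% value). There were 54 such groups and 10 were singled out. Chance gives about 1 in 20 for measures not picked by their values, but most of these segments were named for a high share in some library, so the 10 cannot be set against that rate. Spleen KO 04 was apart for Ighv1-82 (17.3%), Ighv1-78 (10.1%) and the D-proximal part of the locus (44.2%, the lowest). Spleen KO 01 was apart for Ighv9-3 (26.4%), Ighv2-2 (5.63%) and Ighv5-6 (5.10%). Blood KO 04 was apart for Ighv14-2 (7.84%). Blood WT 03 was apart for Ighv5-4 (6.61%) among globin-poor libraries, and spleen WT 02 for the same segment (5.73%) among globin-rich ones. Blood KO 03 was apart for Ighv1-15 (4.44%, on 33 counts). The first 7 rest on at least 373 counts each.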

How the results depend on the processing

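The count of 0 segments called by edgeR for genotype within blood, within spleen, as their difference, and within each kind held under every alternative run. With kind and label terms, 7 segments were called for genotype with no filter beyond 1 count, beside 55 of 35650 genes. For tissue label 11 segments were called with no filter, beside 449 of 35650 genes, and 1 by DESeq2, beside 405 of 16858 genes. The 18 segments called by kind became 78 with library size only (which puts the median of all genes at 2.16), 49 with no filter, 8 with a replicate block, 6 without spleen KO 01 and KO 04 together, and 9 to 23 when 1 library was left out. Of all genes, 14496 of 16858 were called with library size only and 14140 of 35650 with no filter. With the replicate block 7477 of 16858 genes were called, and without both KO spleen libraries 7518 of 16180. Leaving out 1 library gave 7672 of 15546 to 10172 of 19380 genes called. All alternatives run kept Ighv1-55, Ighv1-74, Ighv4-1 and Ighv9-3 as called, but they reuse the same libraries. Ighv1-74 reached the filter level in no globin-rich library and Ighv4-1 in 2, beside all 6 globin-poor ones, so their calls support no direction. The 3 segments called at equal Ighv total became 5 with no filter, 0 with the replicate block and 1 without both KO spleen libraries. They became 0 to 5 when 1 library was left out. Of all genes, 12357 of 35650 were called with no filter and 2736 of 16858 with the replicate block. Leaving out 1 library gave 3244 of 15408 to 7882 of 15546 genes called at equal Ighv total. The KO minus WT difference of effective numbers in globin-poor libraries, -17.45, was -9.32 without each library's first segment and -20.60 to -10.33 with 1 library left out. The fitted genotype difference of Ighv1-26 ranged from -0.38 to 0.36 with 1 library left out (-0.03 without blood WT 03, -0.10 without spleen WT 02), and that of Ighv9-3 at equal Ighv total from -0.11 to 0.70. The causes were not tested. On a separate measure, not the segment shares, same-numbered libraries correlated from -0.75 to 0.66, positive where their kinds matched. The numbers were therefore not taken as pairs. The block could not be fitted within globin-rich libraries. With 262 to 1244 Ighv counts, globin-rich libraries limit what a segment's share there can show.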
